A study of Mus musculus with 10 samples.

Results

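Cytosolic ribosomal protein genes encode the proteins that are assembled with ribosomal RNA into the ribosome of the cytoplasm, and they were followed here in Achilles tendon RNA of mice with and without an induced deletion of Mkx (Mohawk), a homeobox transcription factor of tendon. The genes were chosen by name only: protein-coding mouse genes called Rpl or Rps with a number, together with Rpsa, Rplp0, Rplp1 and Rplp2. The rule found 77 of the 32285 genes in the count table, 46 of the large subunit and 31 of the small subunit, and every annotated gene that fits the rule had a row. All 77 passed the filter on low counts, which kept 16017 genes, so none of them was left untested.

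The ribosome joins a small subunit, which reads the mRNA, to a large subunit, which makes the peptide bond, and each subunit needs 1 copy of nearly every one of its proteins. The mRNAs of these proteins belong to the 5′ terminal oligopyrimidine (TOP) class. A TOP mRNA begins with a cytosine and a run of pyrimidines, and growth signalling through mTORC1 and the RNA-binding protein LARP1 acts on its translation. Tendon is a tissue of few, slowly dividing fibroblasts in a collagen matrix, with macrophages, vessels, nerve and, at its ends, muscle close by.

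RNA was measured by RamDA-seq, a full-length total RNA method for small inputs, in 10 libraries from mice that had all received tamoxifen at 20 mg/kg at 6 weeks of age, with the tendon taken 4 weeks later. There were 3 Mkx-CreER/flox libraries, which carry both the inducible Cre and the floxed allele, 3 Mkx-CreER/+ libraries with the Cre alone and 4 Mkx flox/+ libraries with the floxed allele alone. The genotype name places CreER at the Mkx locus, so that Cre would be made in cells that express Mkx and 1 Mkx allele would be altered wherever CreER is present. The sources used here do not say how many animals went into a library, so the p-values below measure the spread between libraries. Libraries carry the numbers of the table's columns, which are 1, 4 and 5 for Mkx-CreER/flox, 1, 2 and 4 for Mkx-CreER/+ and 1 to 4 for Mkx flox/+.

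Total counts ran from 8680934 to 22656417 per library. Mkx had 26.1, 32.4 and 30.5 CPM (counts scaled to library size) in Mkx-CreER/flox, against 91.4, 93.8 and 93.5 CPM in Mkx-CreER/+ and 187, 177, 121 and 153 CPM in Mkx flox/+, with no overlap. All 14 tendon fibroblast markers had counts in every library, and their share of counts was 4.42% to 5.59% in Mkx-CreER/flox and 6.81% to 15.2% in the controls. Skeletal muscle markers took 8.23% to 12.9% of counts in Mkx-CreER/flox and 1.86% to 9.01% in the controls, and mitochondrially encoded genes took 3.96% to 8.85% in Mkx-CreER/flox and 1.92% to 4.78% in the controls. In bulk tissue, fewer cells of a type and less RNA per cell cannot be told apart.

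The start sites of 4 members are shown, 2 that open with a pyrimidine run and 2 that do not. Rps6 is the small subunit protein that S6 kinase phosphorylates, and Rps10, Rps12 and Rps19 are called lower below. Each line gives 30 bases around a RefSeq start on GRCm38.p6, with the start base in capitals and, where an unbroken run of C and T begins there, the whole run.
Rps6, chr4:86857353-86857382, minus strand: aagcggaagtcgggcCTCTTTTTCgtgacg
Rps10, chr17:27635230-27635259, minus strand: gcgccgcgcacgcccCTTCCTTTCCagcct
Rps12, chr10:23787195-23787224, minus strand: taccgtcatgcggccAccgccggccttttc
Rps19, chr7:24884577-24884606, plus strand: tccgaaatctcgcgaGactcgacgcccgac
The Rps6 start opens with a run of 9 pyrimidines and the Rps10 start with a run of 10. The Rps12 start falls on an A and the first of 3 Rps19 starts on a G. Among members, 57 of 77 had at least 1 promoter in the table, 67 promoters in all. A C followed by at least 4 pyrimidines (C or T), read on the gene's strand, stood exactly at the start in 13 of the 67 promoters (19.4%), against 2.5% of all 32851 promoters. Within 10 bases of the start it was found in 36 of them (53.7%), against 30.7% of all promoters. Annotated starts can lie a few bases from the base that transcription uses, and these matches describe the letters only.

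Ribosomal protein genes took a smaller share of the counts in Mkx-CreER/flox tendon than in most control libraries. The 77 genes together held 1.48%, 1.41% and 1.62% of the counts in Mkx-CreER/flox libraries 1, 4 and 5. They held 2.60%, 2.78% and 1.62% in Mkx-CreER/+ libraries 1, 2 and 4, and 2.15%, 2.21%, 2.25% and 1.76% in Mkx flox/+ libraries 1 to 4. The Mkx-CreER/flox mean was 1.503% ± 0.109 (SD, n = 3). The Mkx-CreER/+ mean was 2.33% ± 0.623 (SD, n = 3), and the Mkx flox/+ mean was 2.09% ± 0.226 (SD, n = 4). The ratio of the means was 0.644 against Mkx-CreER/+ and 0.718 against Mkx flox/+. Mkx-CreER/flox 5 was at 1.622% and the control library Mkx-CreER/+ 4 at 1.623%, so that this control stood with the Mkx-CreER/flox libraries and widened the spread of its own group. Mkx flox/+ 4 was the next lowest control.

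The shares of both subunits ran in parallel over the libraries. Large subunit genes held 0.781% to 0.903% of counts in Mkx-CreER/flox, against 0.896% to 1.55% in Mkx-CreER/+ and 0.976% to 1.25% in Mkx flox/+. Small subunit genes held 0.628% to 0.719% in Mkx-CreER/flox, against 0.727% to 1.23% in Mkx-CreER/+ and 0.784% to 0.997% in Mkx flox/+. Large subunit counts exceeded small subunit counts by a ratio of 1.25 ± 0.00757 in Mkx-CreER/flox (SD, n = 3). That ratio was 1.25 ± 0.0173 for the 3 Mkx-CreER/+ libraries and 1.27 ± 0.0287 for the 4 Mkx flox/+ libraries. When counts of mitochondrial, muscle and erythroid genes were taken out of the total, the share was 1.65% to 1.89% in Mkx-CreER/flox, 1.83% to 3.14% in Mkx-CreER/+ and 1.91% to 2.43% in Mkx flox/+. On that scale Mkx-CreER/flox overlapped Mkx-CreER/+ 4 and still lay below all 4 Mkx flox/+ libraries.

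**Figure D1:**
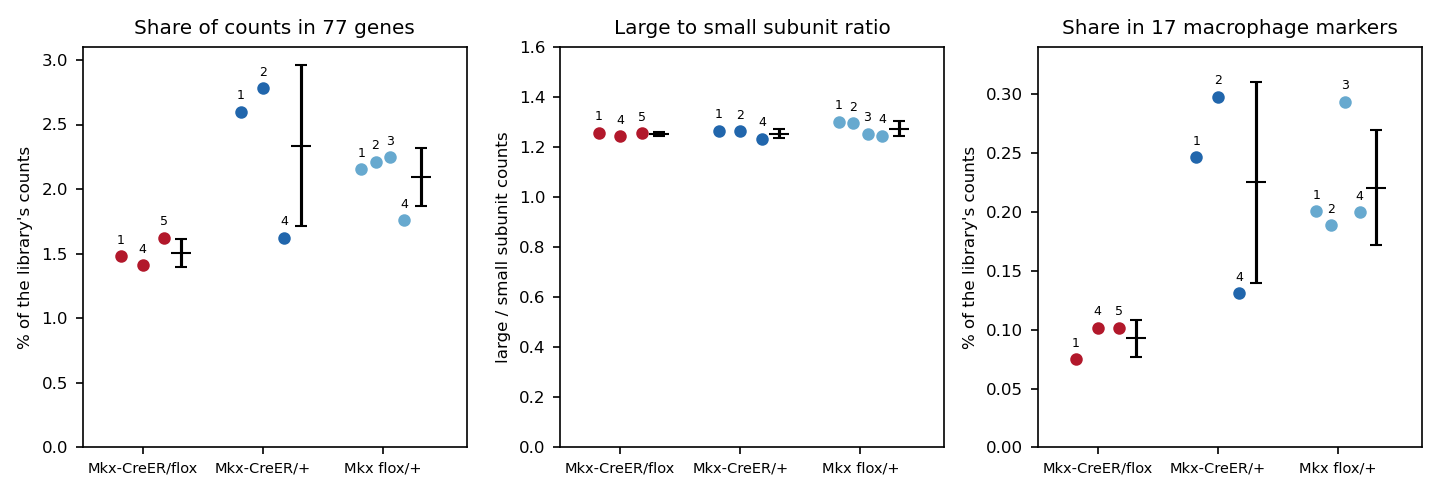
Share of all counts in the 77 ribosomal protein genes (left, %), ratio of large to small subunit counts (middle) and share of counts in 17 macrophage markers (right, %), with 1 point per library, its number beside it, and mean ± SD as bars. The ribosomal protein share is 1.41% to 1.62% in Mkx-CreER/flox and 1.62% to 2.78% in the 7 controls, the subunit ratio lies between 1.23 and 1.30 in all 10 libraries, and Mkx-CreER/+ 4 is the lowest control in both outer panels.

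Markers of other cell types moved in the same comparison, macrophage and tendon fibroblast markers in the direction of these shares. The 17 macrophage markers, none of which was at 0 in any library, summed to 0.0748%, 0.102% and 0.102% of counts in Mkx-CreER/flox. They summed to 0.246%, 0.298% and 0.131% in Mkx-CreER/+ and to 0.200%, 0.189%, 0.293% and 0.199% in Mkx flox/+. Mkx-CreER/flox did not overlap the controls, and Mkx-CreER/+ 4, the control with the lowest ribosomal protein share, was also the control with the lowest macrophage share. The same library had the lowest tendon fibroblast share of the controls (6.81%) and their highest mitochondrial share (4.78%), so the match was not particular to macrophage markers. In edgeR's quasi-likelihood test against both controls, 14 of the 17 macrophage markers were lower and 0 were higher. Lists of 4 other cell types had calls and medians above 0. Of 10 Schwann cell markers 2 were higher (median log2 fold change 1.71), of 10 mural markers 2 were higher (0.84), of 10 endothelial markers 1 was higher (0.40) and of 30 skeletal muscle markers 6 were higher (0.57), each with 0 lower. Schwann cell markers summed to 0.0492%, 0.154% and 0.252% of counts in Mkx-CreER/flox 1, 4 and 5, against 0.0572% to 0.113% in the controls, and mural markers to 0.107% to 0.195% in Mkx-CreER/flox, against 0.0766% to 0.119% in the controls. Endothelial markers summed to 0.0509% to 0.0849% in Mkx-CreER/flox and 0.0408% to 0.0664% in the controls, so all 3 of these lists overlapped between the groups. Of 14 tendon fibroblast markers 5 were lower and all 14 lay below 0 (median -0.74), and their shares, given above, did not overlap between Mkx-CreER/flox and the controls. Adipocyte (0 of 8), erythroid (0 of 5) and lymphoid or mast cell markers (0 of 5) gave no call. Below 0 lay 7 adipocyte markers (median -0.41), 4 erythroid markers (-0.64) and 2 lymphoid or mast cell markers (0.14). None of the Schwann, mural or endothelial markers was at 0 in any library, and the part of these cell types in the ribosomal protein values was not tested.

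The first comparison asks how ribosomal protein genes stand in Mkx-CreER/flox tendon relative to both control genotypes, each weighted equally. All 77 genes had a lower estimate in Mkx-CreER/flox, with a median log2 fold change of -0.55 (a ratio of 0.683) and a range of -1.09 to -0.08. Of these, 5 fell at an adjusted p under 0.05 and 0 rose, which is 6.49% of members beside 1.62% of all tested genes called lower and 3.03% called higher. Over all tested genes the median was 0.02 and 48.5% lay below 0. At an unadjusted p under 0.05, 51 members were lower, where 8.73% of all tested genes were. The large subunit gave 2 calls and a median of -0.56 over 46 genes, and the small subunit 3 calls and a median of -0.50 over 31 genes.

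The 5 genes called lower were Rpl36 and Rpl21 of the large subunit and Rps10, Rps12 and Rps19 of the small subunit. On the mouse build GRCm38 their gene spans are chr17:56613416-56614243 for Rpl36, chr5:146832890-146837032 for Rpl21, chr17:27630418-27636669 for Rps10, chr10:23785183-23787275 for Rps12 and chr7:24884371-24889806 for Rps19. Rpl36 had 30.9, 36.7 and 44.8 CPM in Mkx-CreER/flox, against 90.2, 114 and 40.2 CPM in Mkx-CreER/+ and 70.5, 81.9, 98.1 and 61.5 CPM in Mkx flox/+. Only Mkx-CreER/+ 4 reached into the Mkx-CreER/flox range. Its log2 fold change was -1.09 (SE 0.274, edgeR adjusted p = 0.0384), the lowest estimate among the 77.

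Rps19, the gene most often mutated in human Diamond-Blackfan anaemia, had 114, 105 and 122 CPM in Mkx-CreER/flox, against 211, 228 and 127 CPM in Mkx-CreER/+ and 168, 173, 219.8 and 178 CPM in Mkx flox/+. Every Mkx-CreER/flox library lay below every control, and Mkx-CreER/+ 4 was the control nearest to them. The log2 fold change was -0.71 (SE 0.188, edgeR adjusted p = 0.0447).

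Rps12, whose fly counterpart takes part in the competition between cells of different ribosomal protein dose, was the highest member per kilobase of its main coding transcript. It had 509, 466 and 506 CPM in Mkx-CreER/flox, against 983, 1050 and 553 CPM in Mkx-CreER/+ and 834, 807, 845 and 813 CPM in Mkx flox/+. The groups did not overlap, and the 4 Mkx flox/+ libraries lay close together. The log2 fold change was -0.77 (SE 0.207, edgeR adjusted p = 0.0476).

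Rps10, another Diamond-Blackfan gene in humans, had 71.7, 80.7 and 113 CPM in Mkx-CreER/flox, against 161, 215 and 101 CPM in Mkx-CreER/+ and 136, 169, 184 and 144 CPM in Mkx flox/+. Here Mkx-CreER/+ 4 lay below Mkx-CreER/flox 5. The log2 fold change was -0.84 (SE 0.225, edgeR adjusted p = 0.0464). Rpl21 had 99.5, 80.3 and 98.6 CPM in Mkx-CreER/flox, against 187, 186 and 119 CPM in Mkx-CreER/+ and 170.4, 151, 132 and 109 CPM in Mkx flox/+, without overlap. Its log2 fold change was -0.71 (SE 0.191, edgeR adjusted p = 0.0476).

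These 5 calls lie close to the threshold, and the next gene, Rpl18, missed it at a log2 fold change of -0.77 and an edgeR adjusted p of 0.0516. Leaving out 1 library moved the count from 5 to 0 for each of 7 libraries and to 2 without Mkx flox/+ 4. It was 12 without Mkx-CreER/flox 5 and 40 without Mkx-CreER/+ 4. In the last 3 of these fits 1.46%, 2.25% and 3.23% of all tested genes were called lower. DESeq2 called 25 members lower, beside 3.94% of the genes it gave an adjusted p. Limma voom with sample quality weights, which changes both the test and the weight of each library, called 73, beside 8.97%. With the mean log2 level of muscle markers as a covariate, 0 members were called and the median was -0.65. Only 8 of 16017 genes were called lower in that fit. With the mean log2 level of the macrophage markers, 0 members were called and the median turned to 0.20, with 13 of 77 below 0. Only 1 of 16017 genes was called lower there. The macrophage level does not overlap between Mkx-CreER/flox and the controls, so the marker level and the genotype cannot be told apart in that fit.

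**Figure D2:**
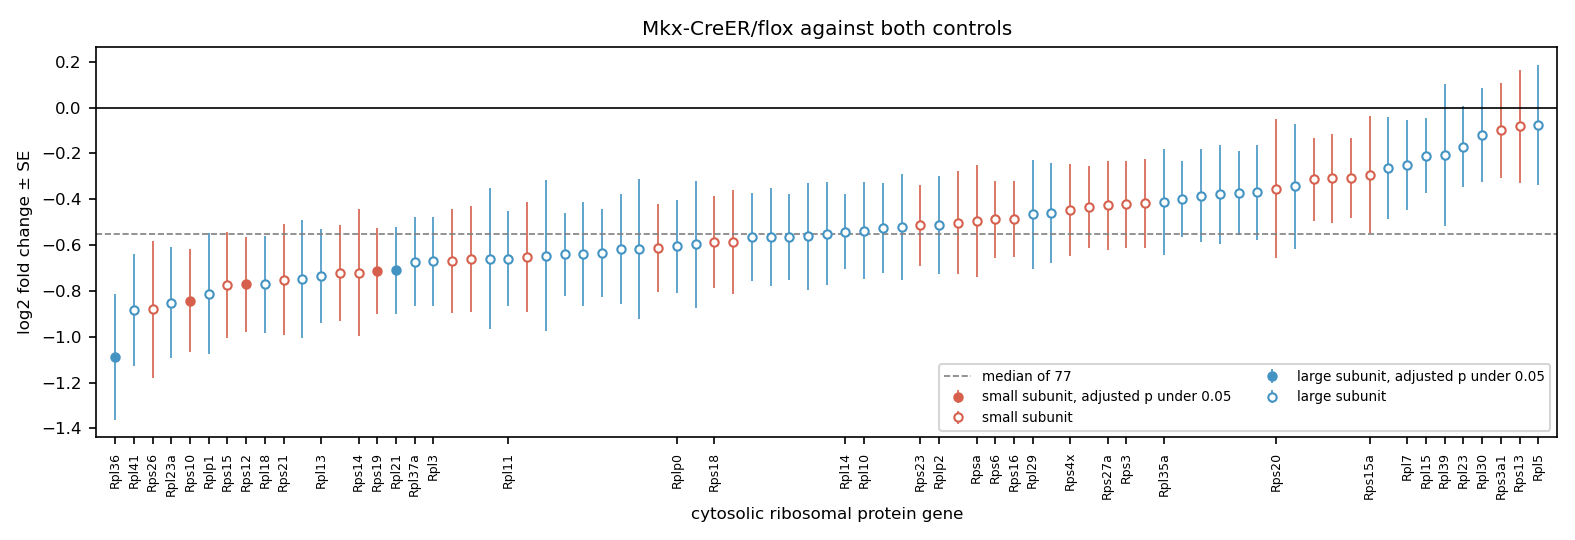
Log2 fold change ± SE of each of the 77 genes in Mkx-CreER/flox against both controls, sorted, with large subunit genes in blue and small subunit genes in red, and the genes named in the text labelled. Every point lies below 0, the dashed line marks the median of -0.55, and the 5 filled points (Rpl36, Rps10, Rps12, Rps19 and Rpl21) have an adjusted p under 0.05.

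In 10 members (13%) every Mkx-CreER/flox library lay below all 7 controls, beside 3.12% of all tested genes, and they were Rpl11, Rpl14, Rpl21, Rpl37a, Rpl41, Rps6, Rps12, Rps16, Rps19 and Rps23, named here for that property after their values were seen. Rps6 had 147, 127 and 153 CPM in Mkx-CreER/flox, against 232, 248 and 166 CPM in Mkx-CreER/+ and 194, 200.5, 184 and 158 CPM in Mkx flox/+. Its log2 fold change was -0.49 (SE 0.166), and its edgeR adjusted p was 0.106. Rpl41, the shortest ribosomal protein, had 253, 414 and 457 CPM in Mkx-CreER/flox, against 798, 883 and 458 CPM in Mkx-CreER/+ and 747, 683, 687 and 554 CPM in Mkx flox/+. The highest Mkx-CreER/flox library and Mkx-CreER/+ 4 were nearly level. The log2 fold change was -0.88 (SE 0.244, edgeR adjusted p = 0.052).

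**Figure D3:**
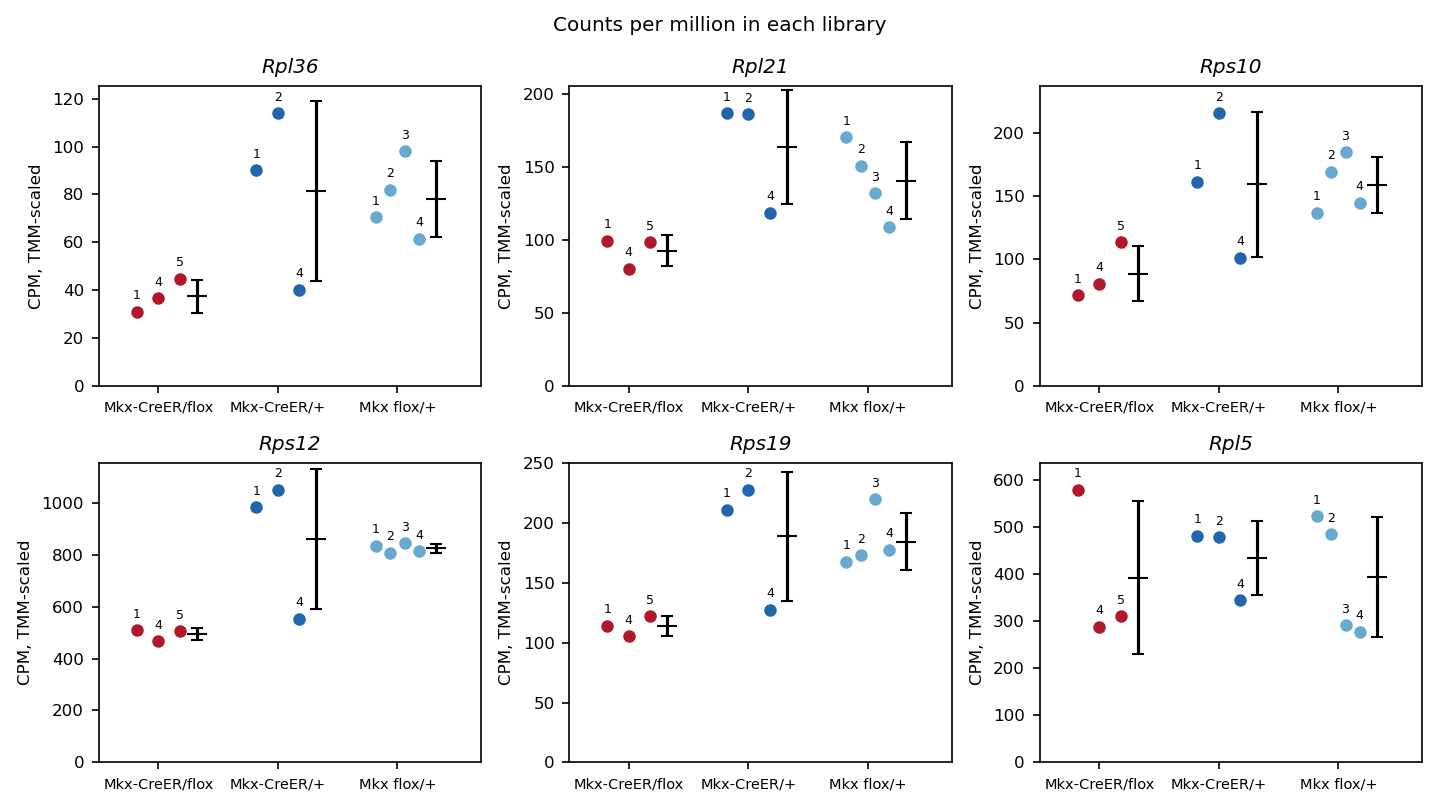
TMM-scaled CPM in each library for the 5 genes called lower and for Rpl5, with library numbers beside the points and mean ± SD as bars. In the 5 called genes the Mkx-CreER/flox libraries lie at or near the bottom, whereas in Rpl5 Mkx-CreER/flox 1 is the highest of all 10 libraries, at 580 CPM.

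Members with known roles beyond the called ones gave lower estimates that did not pass the test. In the stalk of the large subunit, which recruits elongation factors, Rplp0 had 471, 566 and 672 CPM in Mkx-CreER/flox, against 831, 1070 and 650.5 CPM in Mkx-CreER/+ and 847, 821, 863 and 1008 CPM in Mkx flox/+. Rplp0 is a common reference gene in quantitative PCR, and its log2 fold change was -0.61 (SE 0.202, edgeR adjusted p = 0.0998). The stalk proteins Rplp1 and Rplp2 gave -0.81 (SE 0.264, edgeR adjusted p = 0.0921) and -0.51 (SE 0.214, edgeR adjusted p = 0.19). Rplp1 spread widely within the controls, from 168 to 443 CPM.

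Rpl5 and Rpl11 bind 5S ribosomal RNA together and, outside the ribosome, the p53 regulator MDM2. Rpl11 had 183, 160 and 180.2 CPM in Mkx-CreER/flox, against 340.1, 366 and 187 CPM in Mkx-CreER/+ and 245, 297, 269 and 207 CPM in Mkx flox/+, without overlap, and a log2 fold change of -0.66 (edgeR adjusted p = 0.0812). Rpl5 had 580, 288 and 311 CPM in Mkx-CreER/flox, against 482, 479 and 345 CPM in Mkx-CreER/+ and 523, 486, 292 and 278 CPM in Mkx flox/+. Library 1 of Mkx-CreER/flox lay above every control and libraries 4 and 5 within the Mkx flox/+ range. Its log2 fold change of -0.08 (SE 0.263, edgeR adjusted p = 0.91) was the estimate nearest to 0.

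Among other members of the large subunit, Rpl3, which reaches towards the peptidyl transferase centre, averaged 232 ± 34.3 CPM in Mkx-CreER/flox, against 370 ± 108 CPM for Mkx-CreER/+ and 367 ± 21.3 CPM for Mkx flox/+, with a log2 fold change of -0.67 (edgeR adjusted p = 0.0624). Rpl10, one of the last proteins to join the large subunit, gave -0.54 (edgeR adjusted p = 0.163). In the small subunit, Rpsa, also known as the laminin receptor, had 187 CPM in Mkx-CreER/flox 1 but 358 and 412 CPM in libraries 4 and 5, against 363 to 623 CPM in the controls, and gave -0.50 (edgeR adjusted p = 0.269). Rps3, at the mRNA entry channel, gave -0.42 (edgeR adjusted p = 0.226). Rps27a, made as a fusion with ubiquitin, gave -0.43 (edgeR adjusted p = 0.23), and the X-linked Rps4x gave -0.45 (edgeR adjusted p = 0.221). Rps14, whose loss of 1 copy marks the human 5q- syndrome, gave -0.72 with the larger SE of 0.276 (edgeR adjusted p = 0.155).

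Against Mkx-CreER/+ alone, which shares the CreER allele, 0 of 77 members were called in either direction by edgeR, beside 0.00624% of all tested genes called lower, which is 1 gene. All 77 estimates were again below 0, beside 47.1% of all tested genes, with a median log2 fold change of -0.58 and a range of -1.12 to -0.14. The lowest edgeR adjusted p among them was 0.329, and 47 members were lower at an unadjusted p under 0.05, beside 4.98% of all tested genes. DESeq2 called 1 member, limma voom with sample quality weights called 62, and edgeR called 10 once Mkx-CreER/+ 4 was left out. Beside these, 0.566%, 2.76% and 0.589% of all genes with an adjusted p were called lower. The 6 members of smallest p were Rpl21 (-0.82), Rpl36 (-1.12), Rpl37a (-0.79), Rps12 (-0.80), Rps19 (-0.73) and Rpl18 (-0.82), all on the log2 scale. In 11 members (14.3%) the groups did not overlap and Mkx-CreER/flox was below, beside 6.14% of all tested genes.

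Against Mkx flox/+ alone, 3 members fell and 0 rose, beside 2.9% of all tested genes called lower and 4.37% called higher. They were Rpl23a at a log2 fold change of -0.95 (SE 0.261, edgeR adjusted p = 0.0412), Rpl36 at -1.06 (SE 0.294, edgeR adjusted p = 0.0439) and Rps10 at -0.84 (SE 0.243, edgeR adjusted p = 0.0499). Rpl23a lies at the exit of the peptide tunnel. It had 10.4, 14.6 and 17.3 CPM in Mkx-CreER/flox, against 25.8, 23.2, 34.6 and 25.2 CPM in Mkx flox/+, and these groups did not overlap. All 77 estimates were below 0, beside 49.2% of all tested genes, with a median of -0.52, and 38 members were lower at an unadjusted p under 0.05, beside 10.3% of all tested genes. The next by p were Rpl13 at -0.76 (edgeR adjusted p = 0.0517), Rps19 at -0.70 (edgeR adjusted p = 0.0518) and Rps12 at -0.74 (edgeR adjusted p = 0.0597). Mkx-CreER/flox lay below all 4 Mkx flox/+ libraries in 39 members (50.6%), beside 9.5% of all tested genes. This comparison and the one against Mkx-CreER/+ share the 3 Mkx-CreER/flox libraries, and both share libraries with the one against both controls. The count of 3 became 0 or 1 without Mkx-CreER/+ 1, without Mkx-CreER/flox 1 or 4 or without any 1 of the 4 Mkx flox/+ libraries. It was 9 without Mkx-CreER/flox 5 and 18 without Mkx-CreER/+ 4, beside 3.9% and 3.35% of all tested genes called lower.

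Between the controls, Mkx-CreER/+ and Mkx flox/+, 0 members were called by edgeR, beside 0% of all tested genes, and 0 had an unadjusted p under 0.05, beside 4.98% of all tested genes in either direction. DESeq2 and limma voom with sample quality weights also called 0 members, beside 31 genes lower and 6 higher with DESeq2 and 0 with limma voom. The median log2 fold change was 0.08, with a range of -0.19 for Rpl23a to 0.24 for Rpl37a. The members of smallest p were Rps6 (0.23), Rpl37a (0.24), Rpl21 (0.22), Rps18 (0.23), Rpl7 (0.22) and Rpl11 (0.23), each higher in Mkx-CreER/+ as an estimate and none past the test. Leaving out Mkx-CreER/+ 4 moved the median to 0.30 and leaving out Mkx-CreER/+ 2 to -0.09.

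Much of the variation was shared by most members, with Rpsa, Rpl15 and Rpl5 following the others least over the controls. Over the 7 controls, the median correlation of a member's log2 CPM with the mean of the other members was 0.92, with a range of 0.35 to 0.996, and these points share library depth and composition. Mkx-CreER/+ 2 was the highest of the 10 libraries for 58 members, and Mkx-CreER/flox 4 was the lowest for 58. When libraries were scaled to the summed counts of the 77 genes, so that only their proportions were compared, 0 members were called in either direction and 0 had an unadjusted p under 0.05 in Mkx-CreER/flox against both controls. The median was then -0.02 and the range -0.50 to 0.40, while the median of all tested genes shifted to 0.52. In 0 members did the proportion in all 3 Mkx-CreER/flox libraries lie below, or in all 3 above, that of every control.

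On that proportional scale the lowest estimates belonged to Rpl36 (-0.50, edgeR adjusted p = 0.17), Rps26 (-0.37, edgeR adjusted p = 0.302), Rpl41 (-0.30, edgeR adjusted p = 0.43), Rps10 (-0.28, edgeR adjusted p = 0.413) and Rpl23a (-0.28, edgeR adjusted p = 0.457). The highest belonged to Rpl5 (0.40, edgeR adjusted p = 0.273), Rps13 (0.40, edgeR adjusted p = 0.233), Rps3a1 (0.37, edgeR adjusted p = 0.281), Rpl30 (0.35, edgeR adjusted p = 0.283) and Rpl23 (0.32, edgeR adjusted p = 0.332). Rps13 had 272 CPM in Mkx-CreER/flox 1 and 115 and 137 CPM in libraries 4 and 5, against 130.4 to 226 CPM in the controls. Rps3a1 likewise had 734 CPM in library 1 and 392 and 443 CPM in libraries 4 and 5, against 448 to 648 CPM in the controls. In both genes Mkx-CreER/flox 1 stood above the other 9 libraries, and libraries 4 and 5 stood at or near the bottom.

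Mkx-CreER/flox 1 differed from libraries 4 and 5 along base composition. The members' main coding transcripts (the annotated transcript with the longest coding sequence) had a GC content of 41.26% to 60.84%, with a median of 51.89%. In Mkx-CreER/flox 1, the Spearman correlation over the 77 members between GC content and the log2 CPM deviation from the mean of the 10 libraries was -0.62. It was -0.10 and 0.28 in libraries 4 and 5 and between -0.22 and 0.51 in the 7 controls. The same measure over 7704 other coding genes was -0.56 in library 1, so the gradient was not limited to ribosomal protein genes. Relative to libraries 4 and 5, library 1 was highest in Rpl39 (log2 difference 1.43), Rps20 (1.23), Rps15a (1.14) and Rps13 (1.12), and lowest in Rpsa (-1.03), with Rpl41 (-0.78) also among the lowest.

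The fold changes carried the same gradient. The Spearman correlation of log2 fold change with GC content over the 77 members was -0.56 against both controls, and -0.39 over the other coding genes. Without Mkx-CreER/flox 1 it was -0.09 over the members, and the median fold change was then -0.67, with 77 of 77 below 0. Offsets for GC content take each library's own trend on GC content out of the fit. With them the median was -0.52, with 77 of 77 below 0 and 4 called lower, beside 1.75% of all tested genes. The correlation was then -0.06. A relation near 0 follows from the choice of these alternatives, since 1 removes the library singled out for the gradient and the other removes the gradient itself. The median kept its direction under both.

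**Figure D4:**
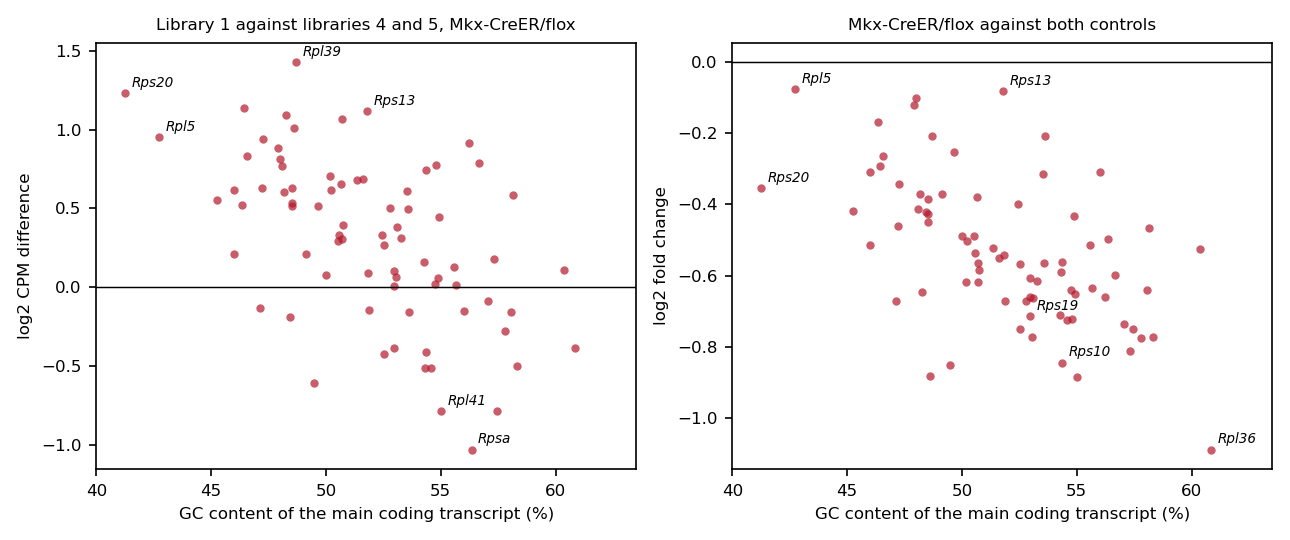
Left, difference in log2 CPM between Mkx-CreER/flox library 1 and the mean of libraries 4 and 5 against the GC content (%) of each member's main coding transcript. Right, log2 fold change of Mkx-CreER/flox against both controls on the same horizontal axis, where the 77 points slope downward with a Spearman correlation of -0.56.

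Other features of the members went with the fold change less closely than GC content. The Spearman correlation of log2 fold change over the 77 members was 0.30 with transcript length, 0.14 with coding length and 0.02 with mean log2 CPM. By library, the members' log2 CPM deviation correlated with transcript length at 0.51 in Mkx-CreER/+ 4 and at 0.34 and 0.285 in Mkx-CreER/flox 4 and 5. The correlation was 0.006 in Mkx-CreER/flox 1, -0.28 and -0.43 in Mkx-CreER/+ 1 and 2, and -0.34 to 0.04 in Mkx flox/+. Over 7704 other coding genes it was 0.38 in Mkx-CreER/+ 4 and -0.42 and -0.23 in Mkx-CreER/+ 1 and 2. Offsets for GC content and length gave a median of -0.445 against both controls, with 77 of 77 below 0. The 13 members with a pyrimidine run at an annotated start had a median log2 fold change of -0.54, and the 44 matched members without one had -0.53. Ribosomal protein genes have many processed pseudogenes, and the median member had 9 annotated pseudogenes that share a 50-base stretch, with up to 119 for 1 member. In 37 members at least 50% of 75-base windows also occurred in another annotated gene, and they had a median log2 fold change of -0.56 and 3 calls. The 40 members below that share had a median of -0.55 and 2 calls. The count table lists 209 of 13525 annotated pseudogenes, and the sources used here do not state how reads that match several places were counted, so absolute levels of such members are uncertain.

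Levels between members were compared as RPKM, reads per kilobase scaled to library size, once over all annotated exons and once over the main coding transcript. Over the main coding transcript the 77 ranged from 39.8 to 1601, with a median of 277.5 over the 10 libraries. Rps12 was highest at a mean of 1601 over all libraries, with 1073 ± 52 in Mkx-CreER/flox, against 1874 ± 586 for Mkx-CreER/+ and 1793 ± 38.6 for Mkx flox/+. Rpl41 had a mean of 1166, with 735 ± 211 in Mkx-CreER/flox, and Rps21 a mean of 776, and both were among the 5 highest. The lowest were Rpl23a at 39.8, Rpl29 at 46.3, Rpl15 at 69.2, Rps26 at 70.9 and Rps20 at 79.8.

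Over all annotated exons the order differed. Rps3a1 was highest at 559 RPKM, and Rplp1, Rpl41 and Rps15, at 551, 508 and 508, were also among the 5 highest. Rps15a was lowest at 20.5, below Rpl15, Rpl35a, Rpl29 and Rpl23a at 22.5, 23.0, 24.0 and 26.3. The rank correlation between the scales was 0.73. Exons of every annotated transcript enter one length and those of 1 transcript the other. The level over the main coding transcript had a Spearman correlation of -0.24 with the number of pseudogenes that share a stretch with the member, given as a description over 77 genes.

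Paralogs and partners outside the naming rule were measured on the same scale. Fau, which encodes the small subunit protein Rps30 fused to a ubiquitin-like protein, had 80.0, 106 and 129.5 CPM in Mkx-CreER/flox, against 188, 255 and 128 CPM in Mkx-CreER/+ and 146, 195, 198 and 177 CPM in Mkx flox/+. It fell, with a log2 fold change of -0.81 (SE 0.218, edgeR adjusted p = 0.0476). Rack1, a scaffold on the small subunit, averaged 521 ± 91.4 CPM in Mkx-CreER/flox, against 793 ± 253 CPM for Mkx-CreER/+ and 767 ± 25.6 CPM for Mkx flox/+ and gave -0.58 (edgeR adjusted p = 0.141).

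Rpl3l, the paralog of Rpl3 in striated muscle, had 152, 81.4 and 63.7 CPM in Mkx-CreER/flox, against 54.4, 92.3 and 58.7 CPM in Mkx-CreER/+ and 22.68, 21.0, 62.2 and 66.4 CPM in Mkx flox/+. Its estimate of 0.87 (SE 0.389, edgeR adjusted p = 0.236) lay above 0, beside -0.67 for Rpl3. The library with most Rpl3l, Mkx-CreER/flox 1, also had the highest share of muscle markers, at 12.9%, and the part of muscle in this value was not tested. The testis paralog Rpl10l had 0 counts in all 10 libraries, and a count of 0 allows up to 3 counts, which is 0.132 to 0.346 CPM of the raw totals, before TMM scaling and for counting error only.

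Further tested paralogs gave estimates of -0.94 for Rpl39l, -0.78 for Rps27rt, -0.23 for Rpl36al, -0.19 for Rpl7l1, 0.09 for Rpl22l1 and 0.29 for Rps27l on the log2 scale, and none passed the test. Rpl39l (SE 0.763) had only 0 to 19 counts per library and Rps27rt (SE 0.43) only 8 to 54. Rps27rt also shared 91.1% of its 50-base windows with other annotated genes. Of the 10 tested genes of this list, 1 fell and 0 rose, with a median of -0.21.

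Genes of the other steps of translation had medians nearer to 0. The list of 21 other TOP mRNAs, such as elongation factors and poly(A)-binding protein, had 1 gene lower (Fau, also counted above) and 0 higher, with a median of -0.16. Elongation and termination factors had 0 of 13 called and a median of 0.01. Within them Eef1a1, which brings aminoacyl-tRNA to the ribosome and is itself a TOP mRNA, averaged 1725 ± 176 CPM in Mkx-CreER/flox, against 2731 ± 636 CPM for Mkx-CreER/+ and 2696 ± 313 CPM for Mkx flox/+. Its log2 fold change was -0.65 (SE 0.216, edgeR adjusted p = 0.0963).

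Initiation factors had 0 of 34 lower and 1 higher, with a median of 0.05. The gene that rose was Eif4e, the cap-binding protein, at 0.83 (SE 0.211, edgeR adjusted p = 0.0386), with 73.6 ± 32.6 CPM in Mkx-CreER/flox, against 45.9 ± 2.62 CPM for Mkx-CreER/+ and 37.3 ± 5.82 CPM for Mkx flox/+. Ribosome biogenesis factors had 0 of 50 called and a median of 0.09, and Rrp12, which takes part in export of pre-ribosomes, gave the smallest p among them at 0.86 (SE 0.237, edgeR adjusted p = 0.0518). Growth control genes had 0 of 24 called and a median of 0.11. Host genes of small nucleolar RNAs, many of them TOP transcripts that code for no protein, had 1 of 13 lower, Snhg18 at -0.74 (SE 0.184, edgeR adjusted p = 0.0352), and a median of -0.24.

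The ribosome of mitochondria gave a contrast within the same class of protein. Of 77 tested mitochondrial ribosomal protein genes, 0 were called, and 16 had an estimate below 0, against 77 of 77 for the cytosolic genes. Their median was 0.22, and their summed share was 0.149% to 0.220% of counts in Mkx-CreER/flox, 0.153% to 0.196% in Mkx-CreER/+ and 0.138% to 0.160% in Mkx flox/+. The difference between both lists was described and not tested. Other genes with only short transcripts also had a median below 0, though nearer to 0 than the members. The 511 other tested coding genes whose longest annotated transcript was under 1000 bases had a median of -0.14. Of these, 302 lay below 0, beside 48.5% of all tested genes. They had 18 lower and 10 higher calls, beside 1.62% of all tested genes called lower and 3.03% called higher. Some members are beyond the limit of 1000 bases, such as Rps12, with a main coding transcript of 460 bases and a longest transcript of 1795.

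**Figure D5:**
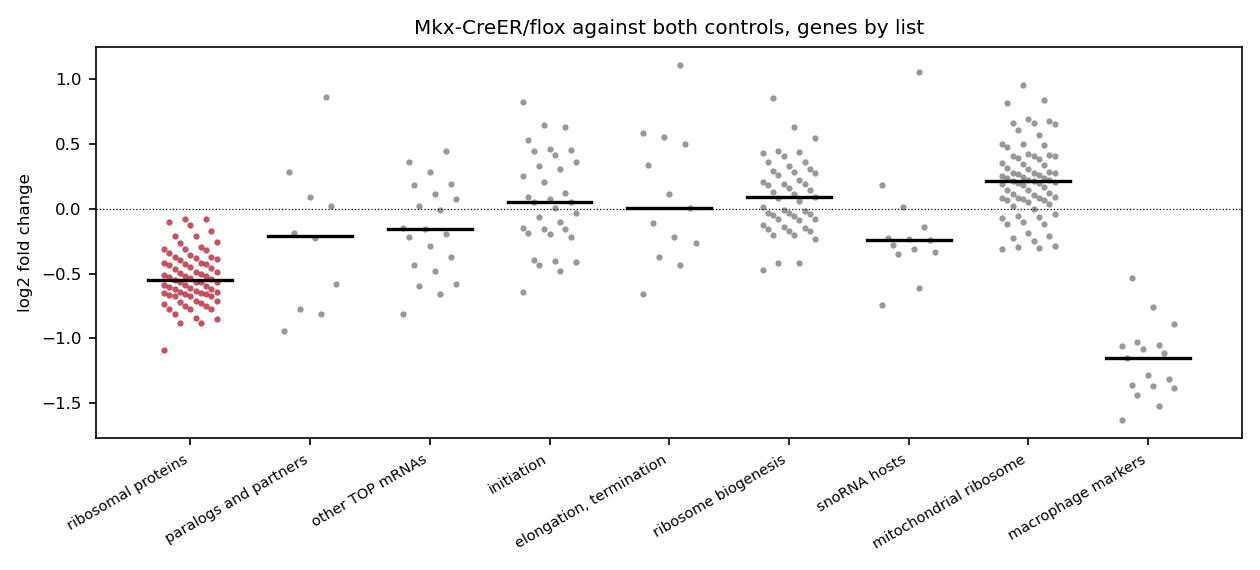
Log2 fold change of Mkx-CreER/flox against both controls for every tested gene of 9 lists, with 1 point per gene and the median as a black line. The 77 ribosomal protein genes (red) lie below 0 with a median of -0.55, the other translation lists have medians between -0.24 and 0.22, and the 17 macrophage markers lie lowest with a median of -1.15.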

How the data were processed

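RNA-seq counts of 10 Achilles tendon libraries were analysed. The deposited values are raw counts per Ensembl gene. Per the submitters' processing notes, fastp, STAR and the build mm10 were used. Their versions, the counting tool, the strand setting and the handling of multiply matching reads are not stated there. GENCODE gave symbols for 32235 of 32285 IDs, and promoters are from RefSeq. In R 4.3.3, edgeR 4.0.16 (filterByExpr, TMM, robust quasi-likelihood fit over the 3 genotypes, Benjamini-Hochberg adjustment over 16017 genes, threshold 0.05) was the main test. DESeq2 1.42.0, limma 3.58.1 (voom with sample quality weights), other scalings and filters, covariates, offsets and each library left out were alternatives. Log2 CPM used a prior count of 2. CPM are TMM-scaled. Counts of 16017 genes were also simulated, each gene independently of the others, with changes put into a part of them. The 2-fold changes recovered were 61.3% against both controls, 36.7% against Mkx-CreER/+ and 45.7% against Mkx flox/+. The 77 members vary together and their median ratio was 0.683, so these figures do not give the power for them.

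Columns of Mkx-CreER/flox and Mkx-CreER/+ were assigned by genotype, since their numbers differ from the sample labels. Named members were the 6 of smallest p per comparison, 15 well-known members, the 5 highest and lowest per kilobase and the 5 largest and smallest changes on the proportional scale. The members and gene lists were chosen with earlier results of these data known. Chi-square values over the members, for each pair of replicate libraries, were 9.88 to 180 times their degrees of freedom, so replicate libraries differed beyond sampling noise. A few genes that the naming rule selects are not reported here by name.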

Additional observations from a re-analysis of the deposited data

Results flagged for a closer look

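Within the 4 Mkx flox/+ libraries, 84 quantities were examined for a library far from the others, and 4 (4.76%) had a gap above the 95% critical value of Dixon's test, about the 1 in 20 that chance gives. The share of counts in large subunit genes was 0.976% in library 4, below the other Mkx flox/+ libraries. Rpl7a had 378 CPM in library 4, the highest of its group. Rpl26 had 108 CPM in the same library, the lowest of its group. The share of counts in macrophage markers was 0.293% in library 3, above the others. The groups of 3 were not examined in this way.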

How the results depend on the processing

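No paired analysis was possible because the column numbers of the genotypes (1, 4 and 5, 1, 2 and 4, and 1 to 4) share no stated animal, litter or day. Leave-one-out fits gave 0 to 40 members lower in Mkx-CreER/flox against both controls (median -0.67 to -0.43), 0 to 10 against Mkx-CreER/+ (-0.80 to -0.41) and 0 to 18 against Mkx flox/+ (-0.62 to -0.39). Beside these, 0.0731% to 3.23%, 0% to 0.589% and 0.762% to 3.9% of all tested genes were called lower. In Mkx-CreER/+ against Mkx flox/+ the median then ran from -0.0887 to 0.30 and Rps18 from -0.0142 to 0.417, lowest without Mkx-CreER/+ replicate 2 and highest without replicate 4.

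Members called lower against both controls numbered 25 with DESeq2, 73 with limma voom with sample quality weights (here voom), 8 with upper-quartile scaling and 15 with no filter. They numbered 0 with scaling to member counts, the muscle covariate or the macrophage covariate. Of all genes with an adjusted p, 3.94%, 8.97%, 2.02%, 1.43%, 0.187%, 0.0499% and 0.00624% were called lower, in that order. Against Mkx-CreER/+ the members called lower numbered 1 with DESeq2 and 62 with voom, beside 0.566% and 2.76% of all genes with an adjusted p. Against Mkx flox/+ the members called lower numbered 14 with DESeq2, 61 with voom, 6 with upper-quartile scaling and 8 with no filter. They numbered 5 without mitochondrial, muscle and erythroid genes, 7 with only the compared groups, 1 with GC offsets and 5 with GC and length offsets. Of all genes with an adjusted p, 5.1%, 9.1%, 3.35%, 2.12%, 3.11%, 2.37%, 3.15% and 3.84% were called lower, in that order. Members called lower were 0 with total counts, member scaling, the muscle covariate or the macrophage covariate, beside 2.21%, 0.506%, 0.362% and 0.00624% of all tested genes. The cause of these differences was not tested.

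Scaling to member counts gave medians of -0.0201, -0.0166, -0.0372 and -0.0133 in the 4 comparisons, by its own construction. Against both controls it turned Rpsa to 0.0618, Rps6 to 0.0348, Rps3 to 0.13, Rps4x to 0.055, Rps27a to 0.0905, Rpl5 to 0.40 and Rplp2 to 0.0294. Rpl5 also turned to 0.0571 with the muscle covariate, and leaving out 1 library took it from -0.486 to 0.102. The macrophage covariate, chosen after seeing the data, turned the medians to 0.20, 0.14 and 0.28 in the 3 comparisons of Mkx-CreER/flox. Against both controls it gave Rpl36 0.32, Rps19 0.12, Rps10 0.11, Rpl18 0.0866, Rps14 0.38, Rps3 0.11, Rps4x 0.0146, Rps27a 0.27, Rpl5 0.0475, Rpl11 0.15, Rpl10 0.31, Rplp1 0.51 and Rplp2 0.46. Against Mkx-CreER/+ it gave Rpl36 0.27, Rps19 0.0768 and Rpl18 0.0133. Against Mkx flox/+ it gave Rpl23a 0.078, Rpl36 0.37, Rps10 0.14, Rpl13 0.15, Rps19 0.16 and Rps12 0.0385. The median of Mkx-CreER/+ against Mkx flox/+ turned to -0.0169 with the muscle covariate and to -0.023 with GC and length offsets. GC and length offsets gave medians of -0.445 against both controls, -0.437 against Mkx-CreER/+ and -0.46 against Mkx flox/+ for Mkx-CreER/flox. GC and length offsets and the main coding transcript were also chosen after seeing the data. The share in Mkx-CreER/flox was 1.80% outside mitochondrial, muscle and erythroid genes. The median level was 456 RPKM per coding length, 176 over the longest transcript and 277.5 over the main coding transcript, against 112 over all exons. Depth did not limit detection of any member, since the lowest count of a member in a library was 115, for Rpl23a. The number of libraries and their spread set the precision.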
